A study of Mus musculus with 282 samples.

Results

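Skipped cassette exons longer than 30 nt were examined in RNA of the hypothalamus, from male mice fed a high fat diet. A cassette exon is an internal exon that some transcripts of a gene carry and others splice out, joining the same flanking splice sites directly. Events of this kind were built from the deposited transcript assembly, where 1 transcript of a gene has the internal exon and another has the skipping junction. This gave 4629 events with 4487 distinct exons in 2887 genes, out of 25952 splicing events of 7 types in 6805 genes. A further 428 events had an exon of 30 nt or less, here called microexons, and serve as a comparison. Inclusion is given as PSI (percent spliced in, here a fraction from 0 to 1), the summed FPKM of the including transcripts divided by that of the including and skipping transcripts. FPKM counts sequenced fragments per kilobase of transcript, scaled by library size, so levels of different transcripts can be compared.

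The mice came from 99 strains of the Hybrid Mouse Diversity Panel, 25 of them classical inbred strains (71 mice) and 74 recombinant inbred strains (209 mice). The recombinant inbred strains descend from crosses of C57BL/6 with DBA/2J (BXD, 43 strains), A/J (AXB and BXA, 18 strains), C3H/HeJ (BXH, 6 strains) and a BALB/c parent (CXB, 7 strains), so every set shares this background. Both parents of CXB were By substrains, of which BALB/cJ and C57BL/6J, measured here, are close relatives. All mice were male and had the same diet, no chow group entered, and the labels give no age. There were 84 strains with 3 mice, 13 with 2 and 2 with 1.

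The study deposited 282 libraries. A pair of the 3 libraries of CXB-6/ByJ differed by at most 0.00706 in log2(FPKM + 1) over all genes, under a tolerance of 0.1 set here, and was counted as 1 sample. The highest correlation between any other pair of libraries was 0.991. Mouse OB-627 carries the names of 2 strains in its labels and entered no comparison. The summed gene FPKM lay between 322047 and 463433 in all libraries except mouse OB-547 of BXD-12/TyJ, where it was 792801, and the total counts per comparison are also given without that mouse. The number of reads behind a PSI value is not known from FPKM, so no counting interval is given and error is the spread between mice. Summed FPKM of 9 hypothalamic marker genes ranged from 858 to 9263 over mice. Markers of neighbouring tissue also varied, from 0.589 to 16462 for 6 anterior pituitary genes (median 25.8) and from 7.25 to 2101 for 5 choroid plexus genes. In bulk tissue, fewer cells of a type and less RNA per cell cannot be told apart.

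Whether a cassette exon is kept depends on the strength of its splice sites and on proteins that bind in the exon and the flanking introns, and brain tissue is known for extensive use of such exons. A coding exon whose length is a multiple of 3 adds or removes amino acids and keeps the reading frame. Other lengths shift the frame, and the shifted transcript often meets an early stop codon and is removed by nonsense-mediated decay. Exons in the 5′ untranslated region (UTR) leave the protein as it is and can change how well the transcript is translated.

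Of the exons described in most detail below, 6 that lie outside UTRs are shown 5′ to 3′ on the strand of their gene, since they differ in place, frame and ending. They were read from GENCODE M21 transcripts in GRCm38, the assembly also called mm10. Capitals mark the last 3 bases, which face the 5′ splice site, where a consensus exon ends in AG. The exons are those of Hyi (84 nt, chr4:118360306-118360389, + strand), Tor1aip1 (56 nt, chr1:156019968-156020023, - strand), Gas5 (41 nt, chr1:161037124-161037164, + strand), Gnb2 (64 nt, chr5:137529846-137529909, - strand), Adal (131 nt, chr2:121142524-121142654, + strand) and Rmst (219 nt, chr10:92082757-92082975, - strand). The exons of Hyi and Gnb2 end in AG, and the other 4 do not.
Hyi: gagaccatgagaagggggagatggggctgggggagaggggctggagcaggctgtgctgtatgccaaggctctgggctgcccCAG
Tor1aip1: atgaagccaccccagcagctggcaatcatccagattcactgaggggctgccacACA
Gas5: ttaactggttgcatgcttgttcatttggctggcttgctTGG
Gnb2: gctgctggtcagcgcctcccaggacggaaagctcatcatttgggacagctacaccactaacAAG
Adal: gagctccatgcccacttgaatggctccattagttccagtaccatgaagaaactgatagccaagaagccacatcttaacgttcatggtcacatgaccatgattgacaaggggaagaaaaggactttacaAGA
Rmst: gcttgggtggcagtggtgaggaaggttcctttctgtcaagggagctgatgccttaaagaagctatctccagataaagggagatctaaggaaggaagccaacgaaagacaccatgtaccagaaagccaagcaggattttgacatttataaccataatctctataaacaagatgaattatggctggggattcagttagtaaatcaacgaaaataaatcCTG

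The exons were short, mostly coding, and used at intermediate levels. Their median length was 100 nt (quartiles 69 and 144, range 31 to 18142), 4255 (94.8%) had at most 300 nt and 86 had more than 1 kb. GENCODE M21 lists 4205 (93.7%) of the distinct exons. Of all distinct exons, 2866 (63.9%) were coding, 438 (9.76%) lay in a 5′ UTR, 337 (7.51%) were partly coding and 5 lay in a 3′ UTR. A further 282 (6.28%) were not exons of M21. The other 559 (12.5%) lay only in M21 transcripts not typed as protein-coding, and are called non-coding here. Whether these transcripts carry a coding sequence at that place was not examined. Of the 559 non-coding exons, 322 (57.6%) belonged to a transcript that M21 types as a target of nonsense-mediated decay.

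Most coding cassette exons kept the reading frame. A length that is a multiple of 3 was found in 1801 of 2866 (62.8%), against 66509 of 163066 (40.8%) internal coding exons of the same minimum length in M21 as a whole. The share was 316 of 343 (92.1%) among coding microexons and 333 of 1002 (33.2%) among UTR and non-coding cassette exons. The coding cassette exons were also shorter than M21 coding exons, with a median of 99 nt against 124 nt. Sequence ends and base composition lay close to those of M21 coding exons. An AG end was present in 56.1% of the cassette exons with a sequence and in 55.9% of the M21 coding exons, and the median GC content was 50.6% and 50.8%.

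A single cassette event was found in 1849 of the 2887 genes (64.0%), and Ank2, a large scaffold protein of the axon membrane, had 10. Over all mice, the mean PSI of an event had a median of 0.579 (quartiles 0.266 and 0.828), against 0.497 for microexons. It was below 0.1 in 484 events, between 0.1 and 0.9 in 3459 and above 0.9 in 686. The median SD of PSI between mice of the same strain was 0.0989. In a mouse, 11.5% ± 3.40 (SD over mice) of the PSI values were exactly 0 or 1, where the skipping or the including form was listed at 0, which can be a failed estimate as well as absence.

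**Figure D1:**
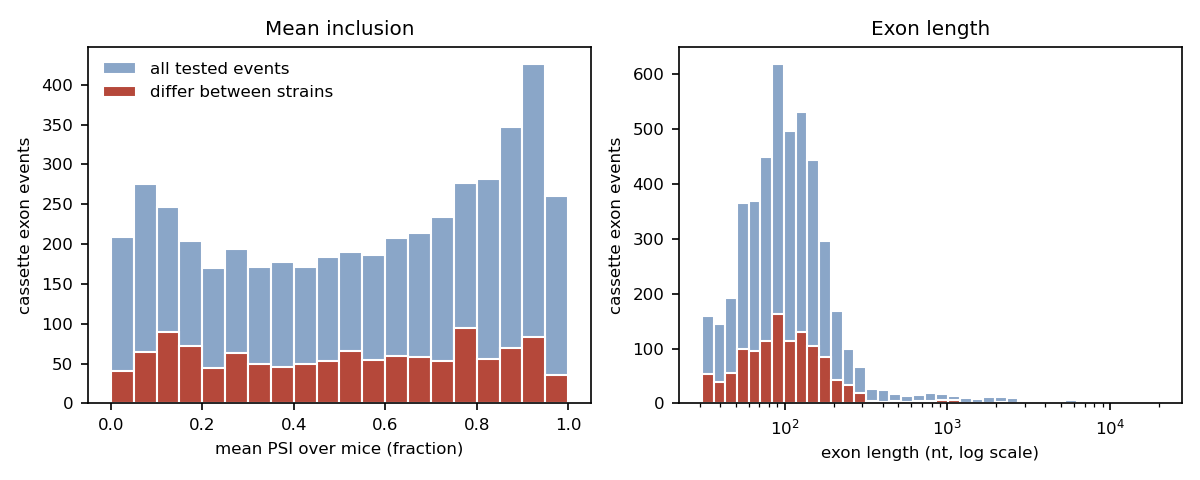
Number of cassette exon events (vertical axes) by mean PSI over mice (left, fraction) and by exon length (right, nt, log scale). Blue bars show all 4627 tested events and red bars, drawn over them from 0, the 1202 that differed between strains, which occur at every level of inclusion and at lengths around the median of 100 nt.

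Inclusion of 1202 cassette exons differed between strains. PSI was compared with a moderated F test (limma) and p-values were adjusted over all events of the 7 types at a threshold of 0.05. Among all 99 strains, 1202 of 4627 tested cassette exons (26.0%) passed, beside 29.2% of all events tested. Microexons passed in 138 of 428 cases (32.2%). Within the 74 recombinant inbred strains, 928 (20.1%) passed, beside 23.2% of all events. Within the 25 classical inbred strains, 396 (8.56%) passed, beside 8.66% of all events. Without mouse OB-547 the counts were 1310 in all strains, 1020 in the recombinant inbred strains and 396 in the classical inbred strains. With the marker lists of neighbouring tissues and cell types as covariates, 1147 passed in all strains.

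The share that passed was higher at higher expression. It was 220 of 1098 where the summed FPKM of both forms averaged below 5, 566 of 2277 (24.9%) from 5 to 20, and 416 of 1252 (33.2%) at 20 or more. Over all events of the 7 types the shares in these bins were 22.4%, 30.1% and 37.7%, so the order is not particular to cassette exons. By place, 740 of 2958 coding events, 122 of 457 5′ UTR events (26.7%) and 165 of 569 non-coding events (29.0%) passed. Coding exons with a length that is a multiple of 3 passed in 496 of 1875 cases (26.5%), and the others in 244 of 1083 (22.5%). The 1202 events lay in 952 genes. The range of their strain means had a median of 0.372 (quartiles 0.234 and 0.577), and 381 had a range of 0.5 or more, 194 of them at a summed FPKM of at least 5. The strain share, here the intraclass correlation of PSI between mice of a strain, was 0.5 or more in 193 and 0.8 or more in 29.

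To describe single exons, the 20 with the widest range of strain mean PSI among the classical inbred strains were taken, at a mean summed FPKM of at least 5 and past the threshold in those strains. Their values in the classical inbred strains, the parents included, chose them and are given as a description. The recombinant inbred strains entered the choice only through the filters on mean FPKM and on defined PSI, which covered all mice. There 11 of the 20 passed the test, beside 23.2% of all events and 20.1% of all cassette exons. These shares cover events at any FPKM, so they are not a like background for the 20. The choosing strains also hold parents, or close relatives of parents, of the recombinant inbred sets, so the 2 groups of strains are related. Settings without replicate 1, 2 or 3 leave out the mouse of that number in each strain, numbered in order of deposit. A strain with no mouse of that number loses none, and the 2 strains with 1 mouse drop out without replicate 1. The median strain share in the recombinant inbred strains was 0.257 over the 20 exons and 0.0572 over all cassette exons. Of the 20 exons, 7 lay in a 5′ UTR, 6 were non-coding, 5 coding, 1 partly coding and 1 was absent from M21. Reads were aligned to the C57BL/6J reference, and how that affects FPKM of other strains was not tested.

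**Figure D2:**
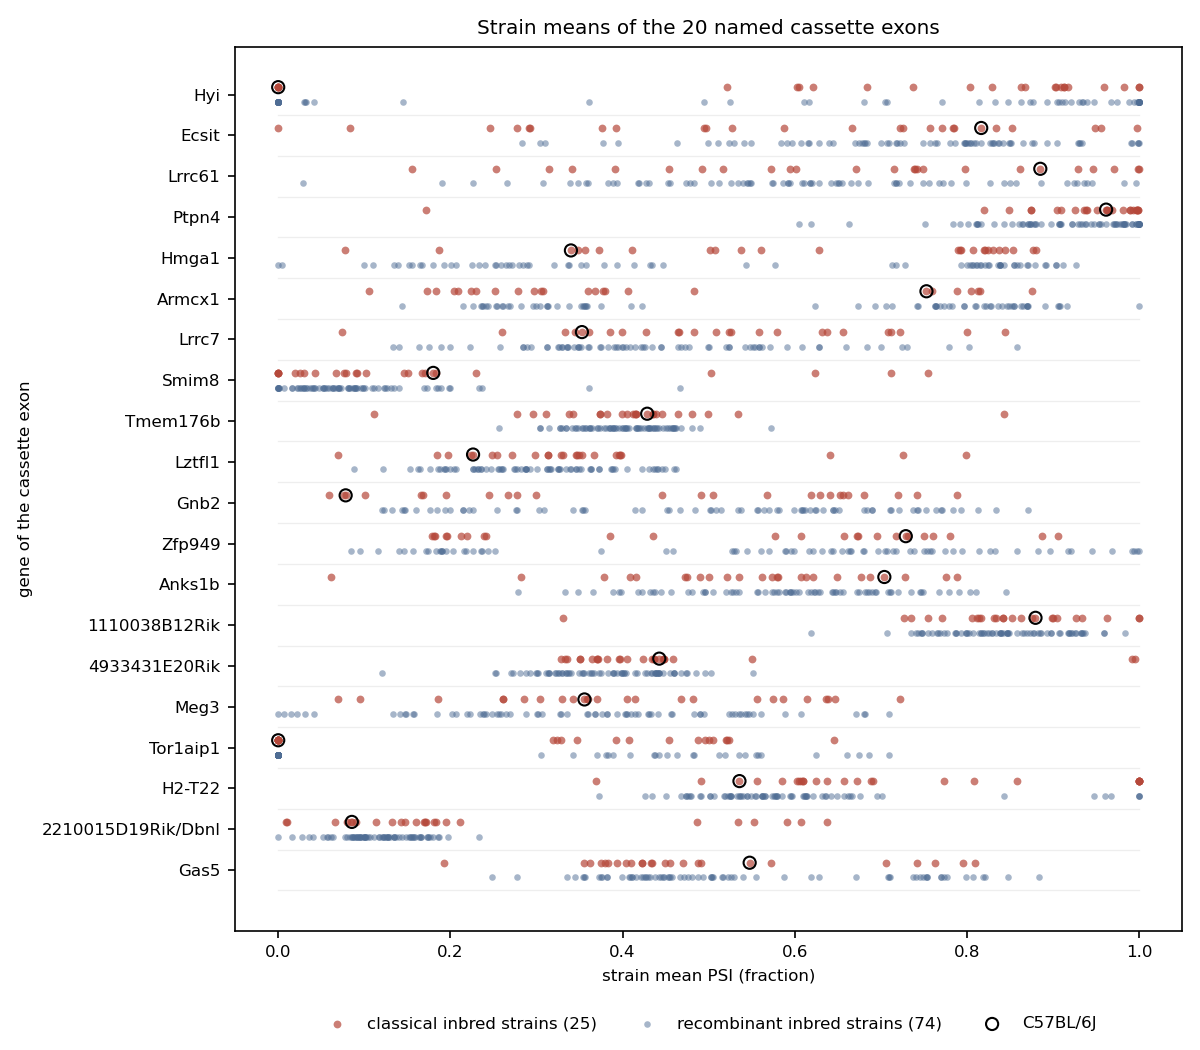
Strain mean PSI (horizontal axis, fraction) of the 20 exons, 1 line each, with red points for the 25 classical inbred strains, blue points for the 74 recombinant inbred strains and a ring around C57BL/6J. The recombinant inbred strains fall into separate low and high groups for Hyi, Hmga1, Armcx1 and Tor1aip1, and gather in 1 band for Tmem176b and 2210015D19Rik/Dbnl, whose outlying values are classical inbred strains.

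Among the exons called non-coding here, those of Hyi and Tor1aip1 were listed at 0 in all C57BL/6J mice and used in the other parents. Hyi encodes hydroxypyruvate isomerase, and M21 types the transcript with its 84 nt exon as a polymorphic pseudogene. PSI was 0, 0 and 0 in the C57BL/6J mice, where the skipping form had 5.17, 3.68 and 7.64 FPKM. It was 0.751, 1 and 1 in DBA/2J, and 1, 0.880 and 1 in A/J. The order was complete, with no C57BL/6J mouse above any mouse of these strains. In C3H/HeJ PSI was 0.471, 0.999 and 0.395, and in BALB/cJ it was 1, 1 and 0.708. The BALB/cJ ratios rest on little RNA, since the including form had only 0.402, 0.0191 and 1.40 FPKM there. In C3H/HeJ the including form was also low, at 0.921, 1.52 and 0.849 FPKM. Of the 25 classical inbred strains, 5 had a mean of 0, which were AKR/J, C57BL/6J, C57L/J, I/LnJ and KK/HlJ, and 25 of the 74 recombinant inbred strains did too.

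In the recombinant inbred strains the strain share of Hyi inclusion was 0.845 (adjusted p = 5.8e-40, limma moderated F test). The BXD strains divided into 14 with a mean nearer to C57BL/6J and 29 nearer to DBA/2J, and only 1 lay midway, in the central 33.3% of the span between the parental means. In AXB/BXA, 14 strains were nearer to C57BL/6J and 4 nearer to A/J. The CXB strains were less clearly divided, with 2 of 7 midway. The gene as a whole was expressed at 6.11 ± 2.79 FPKM (SD over mice) and also differed between strains, with a strain share of 0.700 (adjusted p = 4.24e-31).

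Tor1aip1 encodes LAP1, a protein of the inner nuclear membrane that binds torsinA. Its 56 nt exon occurs in an M21 transcript typed for nonsense-mediated decay. PSI was 0 in the 3 C57BL/6J mice, with 14.8, 17.4 and 12.9 FPKM of the skipping forms. It was 0.548, 0.409 and 0.266 in DBA/2J and 0.423, 0.399 and 0.357 in A/J. C3H/HeJ had 0.231, 0.439 and 0.694, and BALB/cJ 0.671, 0.338 and 0.553. Every mouse of the other parents therefore used the exon, in a share that varied between mice of a strain. The exon was listed at 0 in all mice of 10 classical inbred strains and 48 recombinant inbred strains. Its strain share in the recombinant inbred strains was 0.782 (adjusted p = 8.44e-31). No BXD, AXB/BXA, BXH or CXB strain had a mean midway between its parents, and 27 BXD strains were nearer to C57BL/6J and 16 to DBA/2J. The gene level, at 17.7 ± 1.86 FPKM, had a strain share of 0.0209 (adjusted p = 0.391), so the exon differed between strains while the gene did not pass the test.

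Gas5, a host gene of small nucleolar RNAs, had an including share of 0.529 ± 0.190 (SD over mice) for its 41 nt exon. PSI was 0.587, 0.567 and 0.490 in C57BL/6J and 0.738, 0.668 and 0.881 in DBA/2J. BALB/cJ had 0.804, 0.741 and 0.683, also above all C57BL/6J mice, while A/J (0.332, 0.494 and 0.241) and C3H/HeJ (0.242, 0.511 and 0.657) overlapped with them. No parent passed the moderated t test (limma) against C57BL/6J, with adjusted p-values from 0.450 to 0.907. The recombinant inbred test passed with a strain share of 0.615 (adjusted p = 1.47e-16). Within sets the share was 0.777 in BXD, 0.745 in CXB, 0.250 in BXH and -0.202 in AXB/BXA. The gene had 150.3 ± 126.7 FPKM, and its level differed between strains as well (strain share 0.271). The forms in this event had a summed FPKM of 53.2.

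The other 3 non-coding exons did not pass in the recombinant inbred strains. The exon of 1110038B12Rik, a long non-coding RNA whose locus overlaps Hspa1b, had a strain share of 0.150 (adjusted p = 0.0794, and 0.0171 in the setting without replicate 1). That of 4933431E20Rik, typed as antisense, had 0.124 (adjusted p = 0.142), and reads of this gene and its sense partner cannot be told apart in libraries without strand. The exon at 2210015D19Rik and Dbnl, overlapping loci in the assembly, had -0.104 (adjusted p = 0.959). In the classical inbred strains 1110038B12Rik ranged from 0.331 to 1, with no parent of the recombinant inbred sets at these ends. The 2210015D19Rik/Dbnl exon ranged from 0.00860 in LG/J to 0.637 in SJL/J. The parent DBA/2J, at 0.00976, lay next to the low end, and no parent was at the high end. The range of 4933431E20Rik, from 0.329 in DBA/2J to 0.995 in MA/MyJ, rests on 3 strains in which its transcripts were nearly absent. The including and skipping forms had 0.291 and 0.00115 FPKM in MA/MyJ (PSI 0.995), 0.387 and 0.00393 in NZW/LacJ (0.992) and 0.116 and 0.183 in RIIIS/J (0.551), against 6.07 and 12.3 FPKM in DBA/2J. The highest of the other strain means was 0.458, in AKR/J.

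Of the 7 exons in a 5′ UTR, 4 passed in the recombinant inbred strains. Hmga1 encodes an architectural chromatin protein with AT-hook motifs, and its exon has 115 nt (chr17:27556952-27557066, + strand). PSI was 0.401, 0.327 and 0.292 in C57BL/6J. It was 0.792, 0.819 and 0.768 in DBA/2J, 0.704, 0.861 and 0.949 in A/J, and 0.802, 0.844 and 0.844 in C3H/HeJ. BALB/cJ lay between, at 0.576, 0.673 and 0.637, and no C57BL/6J mouse overlapped with any of the other parents. BALB/cJ did not pass the moderated t test (limma) against C57BL/6J (adjusted p = 0.177), while DBA/2J, A/J and C3H/HeJ did. The strain share was 0.842 in the recombinant inbred strains (adjusted p = 2.49e-39). It was 0.875 in BXD, 0.887 in AXB/BXA and 0.886 in BXH, but -0.161 in CXB, where 6 of 7 strains were nearer to C57BL/6J. Against a C57BL/6J mean of 0.340, the lowest strain means were 0.0999 in BXD, 1.96e-05 in AXB/BXA and 0.00475 in BXH. The highest strain means in these sets, 0.912, 0.927 and 0.904, lay above the mean of the other parent.

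Armcx1, an X-linked gene for a protein that takes part in mitochondrial transport in neurons, went in the opposite direction. Its 92 nt exon (chrX:134718370-134718461, + strand) had PSI values of 0.843, 0.664 and 0.752 in C57BL/6J. They were 0.184, 0.321 and 0.409 in DBA/2J, 0.353, 0.322 and 0.250 in A/J, and 0.0837, 0.496 and 0.313 in BALB/cJ. In C3H/HeJ the values were 0.664, 0.321 and 0.465, the highest of them just below the lowest of C57BL/6J. C3H/HeJ did not pass the moderated t test (limma) against C57BL/6J (adjusted p = 0.147), while DBA/2J, A/J and BALB/cJ did. The strain share in the recombinant inbred strains was 0.866 (adjusted p = 9.58e-44), the largest of the 20, and each of the 4 sets alone gave 0.787 or more. No strain of any set had a mean midway between its parents. The gene level was steadier, with 33.2 ± 2.85 FPKM and a strain share of 0.335 (adjusted p = 8.51e-07).

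Zfp949, a zinc finger gene, and Lrrc61, a leucine-rich repeat gene, also passed. The 146 nt exon of Zfp949 (chr9:88552716-88552861, + strand) had PSI values of 0.925, 1 and 0.262 in C57BL/6J and 0.131, 0.278 and 0.176 in DBA/2J, which overlapped. The including form was alike in both strains (4.56, 3.43 and 1.07 against 2.25, 4.50 and 2.95 FPKM), while the skipping form had 0.369, 0 and 3.01 FPKM in C57BL/6J and 14.9, 11.7 and 13.9 FPKM in DBA/2J. The strain share was 0.637 in the recombinant inbred strains (adjusted p = 5.23e-18), 0.760 in BXD and -0.0500 in AXB/BXA. The level of the gene itself had a strain share of 0.941 (adjusted p = 5.72e-91). Lrrc61 passed with a share of 0.206 (adjusted p = 0.0142). It lost this call in each setting without replicate 1, 2 or 3, with adjusted p-values from 0.0912 to 0.486.

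Ecsit, which takes part in mitochondrial complex I assembly and in Toll receptor signalling, had the second widest inbred range, from 0.000231 in NZB/BlNJ to 0.997 in BUB/BnJ. In the recombinant inbred strains its 186 nt exon had a strain share of 0.0719 (adjusted p = 0.328). Mice of the same strain could differ as much, as in A/J with 0.764, 0.998 and 0.00212. Smim8, a small membrane protein gene, reached 0.755 in C57BLKS/J, and it had a median strain mean of 0.0700 in the recombinant inbred strains (strain share 0.118, adjusted p = 0.157). Tmem176b, a transmembrane protein gene, spanned 0.111 in CE/J to 0.843 in MA/MyJ, but the parents all had mice between 0.249 and 0.546 and the recombinant inbred share was -0.111 (adjusted p = 0.967).

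Among the 5 coding exons, those of Gnb2 and H2-T22 passed in the recombinant inbred strains. Gnb2 encodes a beta subunit of heterotrimeric G proteins and was the most abundant protein-coding gene of the 20, at 205.8 ± 40.4 FPKM. The including and skipping forms of its 64 nt exon had a summed FPKM of only 59.9, so PSI leaves out most of the RNA of this gene. The exon, whose loss shifts the reading frame, had PSI values of 0.0344, 0.0405 and 0.160 in C57BL/6J. The other parents had 0.667, 0.426 and 0.762 (DBA/2J), 0.453, 0.993 and 0.514 (A/J), 0.997, 0.450 and 0.521 (C3H/HeJ), and 0.519, 0.996 and 0.525 (BALB/cJ). All 12 mice were above the C57BL/6J mice, and A/J, C3H/HeJ and BALB/cJ each had 1 mouse near 1 beside a pair near 0.5. No parent passed the moderated t test (limma) against C57BL/6J, with adjusted p-values from 0.0545 to 0.119. The strain share was 0.397 (adjusted p = 6.09e-07), ranging from 0.240 in BXD to 0.685 in AXB/BXA, and in the setting without replicate 2 the adjusted p was 0.169. The gene level did not pass (strain share 0.0757, adjusted p = 0.129).

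H2-T22 is a nonclassical major histocompatibility class I gene with close paralogs, so its estimates are uncertain. The 105 nt exon had a PSI of 1 in the 3 A/J mice, where the including forms had only 0.708, 0.576 and 0.455 FPKM, and 0.454, 0.606 and 0.548 in C57BL/6J. The strain share was 0.308 (adjusted p = 0.000162), and on a log2 ratio scale with a pseudocount of 1 it was 0.0205 (adjusted p = 0.556). Without replicate 1 or 2 the adjusted p was 0.259 and 0.0977. The strain share of the gene level was 0.905.

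The remaining coding exons were those of Ptpn4, a tyrosine phosphatase, Lztfl1, a regulator of ciliary trafficking, and Anks1b, the postsynaptic protein AIDA-1. Their recombinant inbred shares were -0.0435, -0.0334 and 0.118, with adjusted p-values of 0.823, 0.790 and 0.160. The Ptpn4 exon of 43 nt was included at 0.916 ± 0.159 over all mice and had its lowest classical inbred mean, 0.172, in PL/J. That mean comes from 2 mice (SD 0.236), with 0.906 FPKM of the including form. The next lowest mean was 0.820, in KK/HlJ, so the wide range of this exon rests on PL/J. The Anks1b exon of 180 nt varied mainly between mice of a strain, for example 0.318, 0.788 and 0.457 in DBA/2J. Its forms had a summed FPKM of 10.8, in a gene at 76.5 FPKM.

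Lrrc7 and Meg3 had exons outside these classes. Lrrc7 encodes densin, a postsynaptic scaffold, and its partly coding 76 nt exon had a strain share of 0.325 (adjusted p = 6.87e-05) with 0.604 in AXB/BXA and 0.143 in BXD, and an adjusted p of 0.0896 and 0.310 without replicate 2 and 3. Meg3 is an imprinted long non-coding RNA, at 926.2 ± 119.6 FPKM the most abundant gene of the 20. Its exon of 9679 nt is not in M21 and belongs to forms with a summed FPKM of 21.5. Its PSI was 0.366, 0.120 and 0.581 in C57BL/6J and 0.682, 0.382 and 0.340 in DBA/2J, which overlapped. The recombinant inbred share was 0.337 (adjusted p = 3.15e-05), with means from 0 in BXD85 to 0.710 in BXD-24/TyJ, and without replicate 2 the adjusted p was 0.301.

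**Figure D3:**
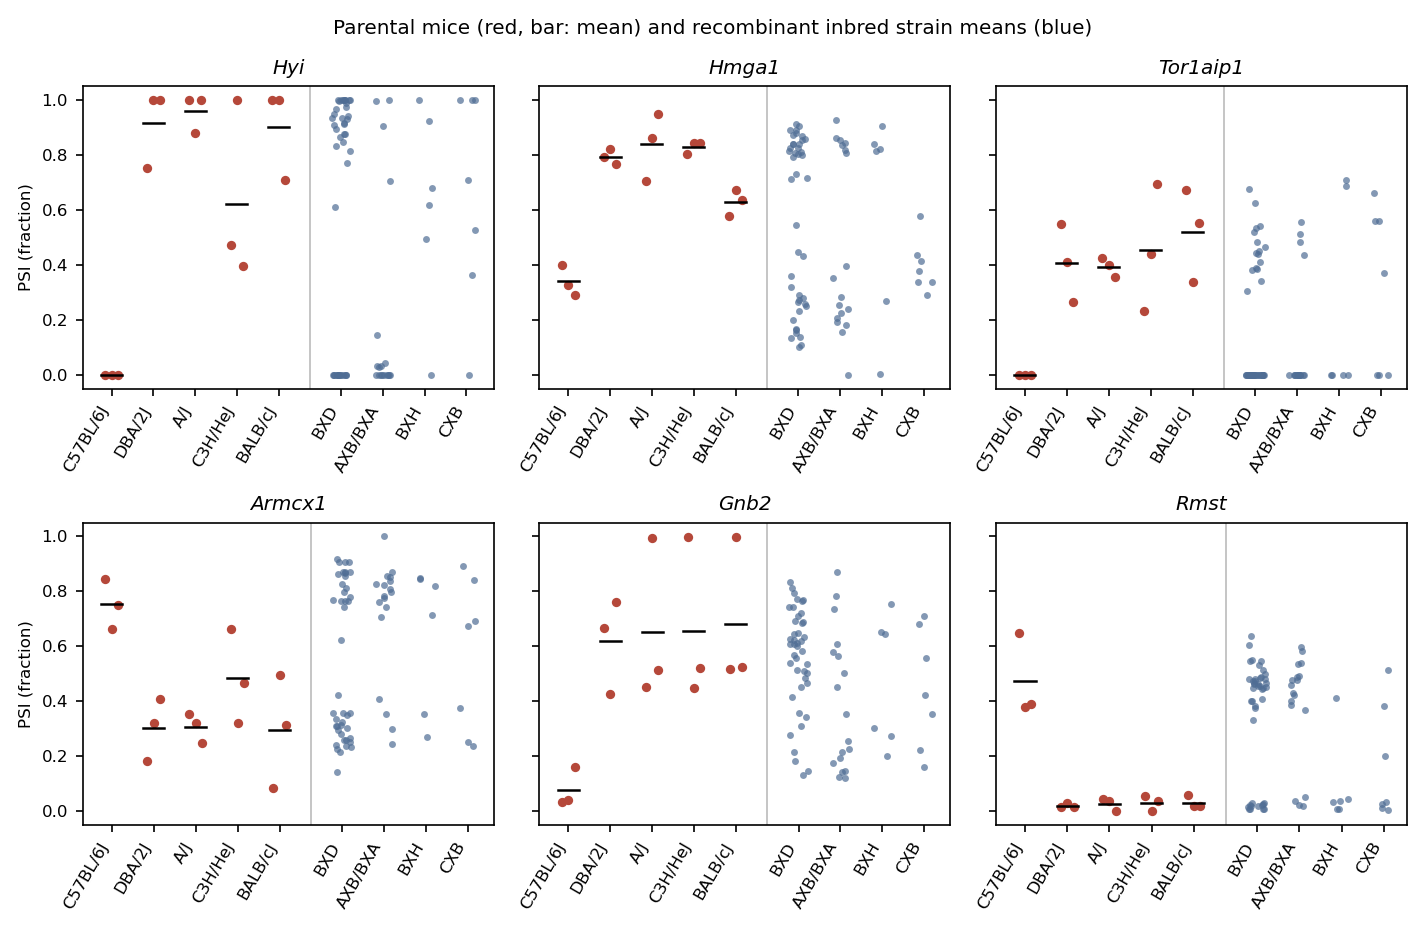
PSI (vertical axes, fraction) of 6 exons in single mice of the parental strains (red, with a bar at the mean of 3 mice) and as means of recombinant inbred strains (blue) by set. For Hyi, Tor1aip1, Armcx1 and Rmst most recombinant inbred means lie near the level of C57BL/6J or of the other parent, and for Gnb2 they spread between 0.120 and 0.871.

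Differences between the parents overlapped between the exons that passed in the recombinant inbred strains and those that did not. The largest difference of a parental mean from C57BL/6J was 0.111 to 0.960 among the 11 exons that passed, and 0.0526 to 0.319 among the 9 that did not. For 6 of the 20 exons at least 1 parent passed the test against C57BL/6J, and all 6 were among the 11. They were those of Hyi, Hmga1, Armcx1, Zfp949, Tor1aip1 and H2-T22. The parental values had a part in the choice of the exons, so this is a description.

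Inclusion and the level of the gene did not go together in a fixed way. The gene level, tested as log2(FPKM + 1) over 99 strains, differed for 15 of the 20 genes, beside 74.9% of all 14079 genes. The 5 that did not pass were Tor1aip1, Gnb2, Lrrc61 (adjusted p = 0.0591), Smim8 (adjusted p = 0.101) and Lztfl1 (adjusted p = 0.570). The first 3 of them passed for the exon in the recombinant inbred strains. In Hyi, Hmga1 and Zfp949 the exon passed there and the gene level passed too. Their strain shares, PSI first, were 0.845 and 0.700 (Hyi), 0.842 and 0.783 (Hmga1) and 0.637 and 0.941 (Zfp949). 4933431E20Rik had a gene share of 0.931 over the 99 strains, while its exon did not pass in the recombinant inbred strains. These are different sets of strains, and over the 99 strains the PSI share of this exon was 0.404. MA/MyJ, NZW/LacJ and RIIIS/J, where its transcripts were nearly absent, are classical inbred strains and enter only the values over 99 strains.

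**Figure D4:**
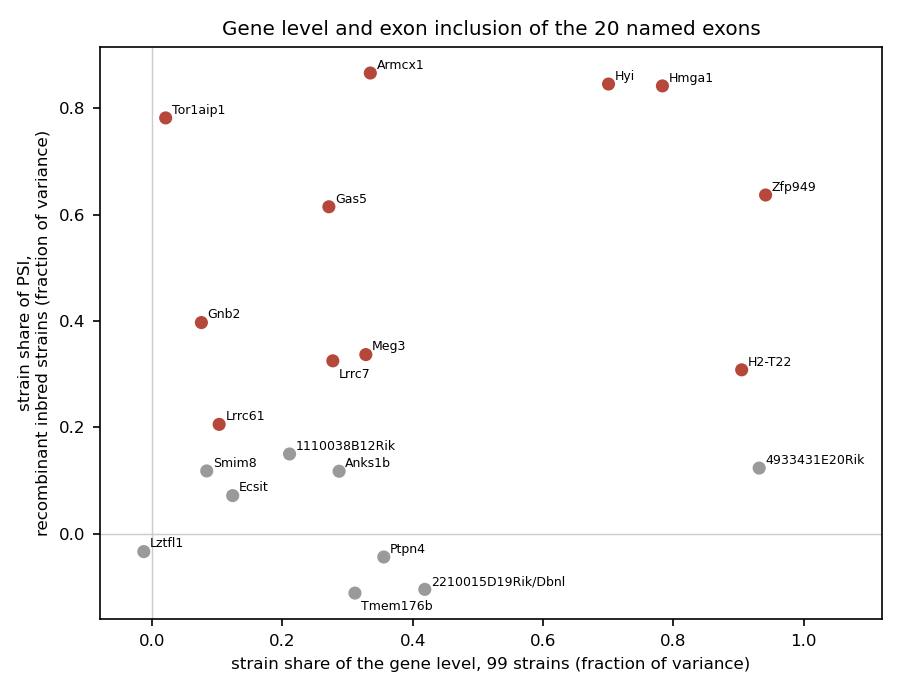
Strain share of the gene level in 99 strains (horizontal axis, fraction of variance) and of PSI in the recombinant inbred strains (vertical axis) for the 20 exons, red where the exon passed the test in the recombinant inbred strains and grey where it did not. Tor1aip1, at 0.0209 and 0.782, sits at upper left, and 4933431E20Rik, at 0.931 and 0.124, at lower right. The axes cover different sets of strains.

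Each of the 4 other parents was compared with C57BL/6J over all cassette exons, with moderated t statistics from the 99-strain fit. The 4 comparisons share the 3 C57BL/6J mice. Against C57BL/6J, 49 of 4626 cassette exons differed in DBA/2J (22 higher and 27 lower), beside 0.907% of all events (0.417% higher and 0.49% lower), or 1.06% of the cassette exons. In A/J 53 differed (1.15%, 26 higher and 27 lower), beside 0.988% (0.467% higher and 0.521% lower). In C3H/HeJ 42 differed (0.908%, 22 higher and 20 lower), beside 0.764% (0.363% and 0.401%), and in BALB/cJ 41 of 4625 (0.886%, 21 higher and 20 lower), beside 0.864% (0.401% and 0.463%). Without mouse OB-547 the counts were 51, 60, 44 and 54. The median absolute difference was 0.353 among the exons that passed in DBA/2J, and 0.0561 over all cassette exons tested there.

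The exons with the widest parental differences past the threshold were mostly among those described above. Hyi led in each parent, by 0.917, 0.960, 0.622 and 0.903 (SE 0.166 for each) above C57BL/6J in DBA/2J, A/J, C3H/HeJ and BALB/cJ. Hmga1 was higher by 0.498 in A/J and by 0.490 in C3H/HeJ (SE 0.0973), and Tor1aip1 by 0.455 in C3H/HeJ and 0.521 in BALB/cJ (SE 0.105). Adal and Nup54 came in by this rule alone. Adal encodes an adenosine deaminase-like enzyme, and its 131 nt coding exon had PSI values of 0.813, 0.870 and 0.947 in C57BL/6J and 0.156, 0.328 and 0.462 in DBA/2J. A/J was also low and tight, at 0.452, 0.424 and 0.454. In the recombinant inbred strains the strain share was 0.514 (adjusted p = 2.54e-11). Their strain means had no part in this choice, but their mice gave part of its within-strain spread, so the test is not independent of it. Nup54, a nuclear pore gene, had 0.620, 0.984 and 0.425 in C57BL/6J and 0, 0 and 0.350 in BALB/cJ, and its recombinant inbred share was 0.0855 (adjusted p = 0.273).

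Another 3 exons are described that were chosen after their values were seen, and no test is given for them. Rmst is a long non-coding RNA of neural tissue, and its 219 nt exon had PSI values of 0.648, 0.381 and 0.392 in C57BL/6J. All 12 mice of the other parents were at 0.0603 or below. The BXD means fell into 31 near C57BL/6J and 12 near DBA/2J with none midway, and in BXH 5 of 6 were near C3H/HeJ. The gene level was 36.2 ± 19.2 FPKM, with a strain share of -0.0198, and the forms in this event had a summed FPKM of 9.16.

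Scnm1 encodes a zinc finger protein of the spliceosome, known as a modifier of a sodium channel disease with a variant allele in C57BL/6J. Its 195 nt exon (chr3:95130164-95130358, - strand) had PSI values of 0.364, 0.451 and 0.522 in C57BL/6J, against 0.727 to 1 over the 12 mice of the other parents. BXD strains divided into 22 and 21, but all 6 BXH strains were nearer to C57BL/6J. The gene level of Scnm1 was 22.3 ± 11.3 FPKM, with a strain share of 0.837. Nrcam, a neuronal cell adhesion gene, has a 153 nt coding exon (chr12:44584835-44584987, + strand). Its forms had a summed FPKM of 8.19, in a gene at 44.3 FPKM. PSI was near 0 in the 3 DBA/2J mice and 0.0569, 0.226 and 0.277 in C57BL/6J. All 43 BXD strains were nearer to C57BL/6J or beyond it. A group of recombinant inbred strains stood far above both parents, with means of 0.945 in BXD75, 0.947 in BXD62, 0.952 in BXD85 and 0.961 in BXD70. BXD62, BXD75 and BXD85, but not BXD70, were also the strains with the lowest Meg3 means, 0.00648, 0.0152 and 0. This overlap was noticed after the values were seen, and a link between the 2 exons was not tested.

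Genes with well known brain splicing were looked up by name, from a list chosen with earlier results of these data known. Of 60 genes 56 were found, and 50 had cassette exons, 150 in all. Of these 65 (43.3%) differed between the 99 strains, beside 26.0% of all cassette exons and 29.2% of all events. Their median strain share was 0.127, against 0.0671 over all cassette exons. The gene level differed for 46 of the 56 (82.1%, beside 74.9% of all genes). The list holds abundant genes, and the share that passed is higher at higher FPKM in all cassette exons.

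Myelin genes gave precise values. The 45 nt exon of Mag, a myelin adhesion protein, was included at 0.965 ± 0.0175 (SD over mice), with strain means from 0.940 to 0.998 and a strain share of 0.839 (adjusted p = 1.48e-34). The 78 nt exon of Mbp, myelin basic protein, was included at 0.0907 ± 0.0181, with means from 0.0526 to 0.141 (strain share 0.559, adjusted p = 4.27e-13). These strain differences were small in size, and for Mag they were large beside the spread between mice of a strain.

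Nrxn2 and Nrxn3 encode presynaptic adhesion proteins with regulated splice sites, and each has a 90 nt exon. PSI was 0.764 ± 0.0316 in Nrxn2 and 0.744 ± 0.0804 in Nrxn3. The exon of Nrxn3 passed the test (strain share 0.452, adjusted p = 2.28e-11), and that of Nrxn2 (0.126, adjusted p = 0.106) did not, though 2 of the 4 exons of Nrxn2 passed. Among the most expressed exons of the list at a summed FPKM of at least 5, the widest strain range was that of Nf1, which encodes neurofibromin, a Ras GTPase-activating protein. Its 63 nt exon was included at 0.372 ± 0.191, with strain means from 0.156 to 0.999 and a strain share of 0.752 (adjusted p = 1.31e-36).

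Other membrane and synaptic genes passed as well. Bin1, a membrane-bending protein, had a strain share of 0.523 for its 93 nt exon (PSI 0.574 ± 0.0671). Picalm, a clathrin adaptor, had 0.506 for a 150 nt exon (PSI 0.645 ± 0.0814). Grin1, the obligatory NMDA receptor subunit, had 0.271 for its 63 nt exon (PSI 0.212 ± 0.0700, adjusted p = 0.000126). Of the 10 exons of Ank2 7 passed. Of the 7 exons of Mapt, the microtubule-associated protein tau, 3 passed, and the most expressed of the 7, a coding exon of 87 nt with PSI 0.152 ± 0.0626, did not (strain share 0.0156, adjusted p = 0.559). The 110 nt exon of Dlg4, the scaffold PSD-95, did not pass either (PSI 0.891 ± 0.0471, adjusted p = 0.679).

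**Figure D5:**
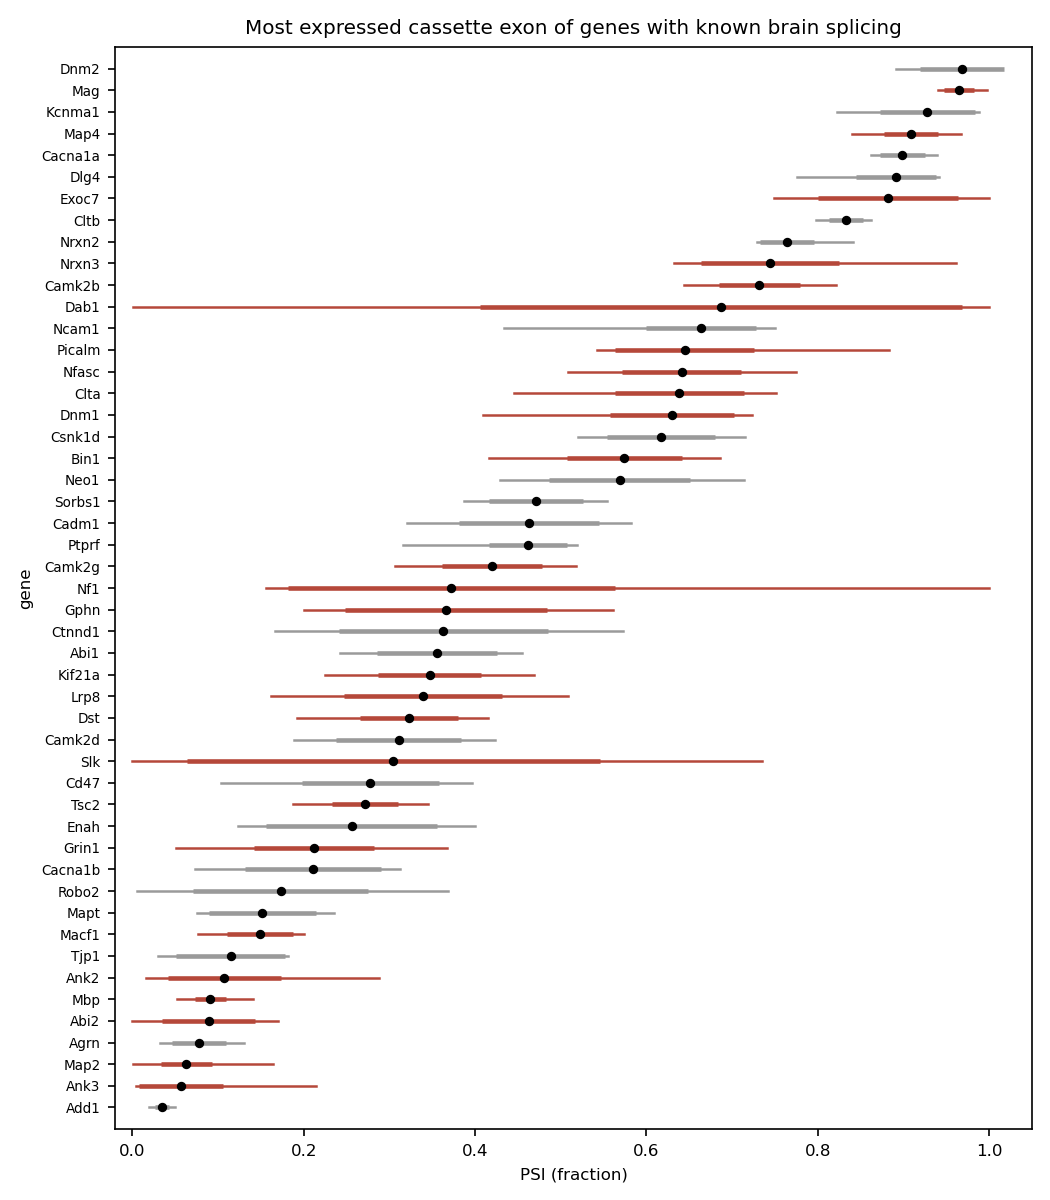
PSI (horizontal axis, fraction) of the most expressed cassette exon in genes with known brain splicing. Points are means over mice, thick lines the SD over mice and thin lines the range of the strain means, red for genes whose exon differed between the 99 strains and grey for the others. Mag at 0.965 has a narrow range, and Nf1 spans 0.156 to 0.999.

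Splicing regulators were read at the gene level and for their own cassette exons. Of 61 genes looked up 57 were found, and the level of 48 (84.2%) differed between the 99 strains, beside 74.9% of all genes. There were 73 cassette exons in 36 of them, and 15 (20.5%) differed between strains, beside 26.0% of all cassette exons. The most expressed exon passed in 8 genes, among them Celf1, Srsf1, Srsf6, Hnrnpa1, Hnrnph1, U2af2 and Rbm10. Celf1, which binds GU-rich RNA, had the highest share, 0.526 for a 53 nt exon in the 5′ UTR with strain means from 0 to 0.578. Hnrnpa1, a repressor of exon inclusion, followed with 0.477 for a 159 nt coding exon with means from 0.187 to 0.515.

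Several SR protein genes, whose products bind exonic enhancers, carried an exon that M21 places in a transcript typed for nonsense-mediated decay. Such exons are known as a means by which these genes limit their own expression. Inclusion was 0.246 ± 0.0776 for the 456 nt exon of Srsf3, 0.293 ± 0.0784 for 90 nt in Srsf9, 0.0640 ± 0.0476 for 117 nt in Srsf11 and 0.203 ± 0.161 for 276 nt in the related Tra2b. None of these 4 passed the strain test (adjusted p from 0.144 to 0.669). The 268 nt exon of Srsf6, at 0.470 ± 0.0712, did pass (strain share 0.227, adjusted p = 0.00141).

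Exons next to the limit of 30 nt are given as a description. Just inside it, 12 events had an exon of 31 nt, of which 4 differed between strains, and just outside it 37 events had 30 nt, of which 9 did. The most expressed event at each length was in Clstn1, a synaptic adhesion protein of the calsyntenin family, with PSI 0.0466 ± 0.0152 at 31 nt and 0.146 ± 0.0501 at 30 nt.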

How the data were processed

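RNA of whole hypothalamus was sequenced by the authors from unstranded libraries with paired 50 bp reads, aligned to mm10 with STAR 2.3.1, assembled per strain with Cufflinks 2.2.0 and quantified with Cuffnorm 2.2.1. The deposited values are FPKM scaled between mice by the authors, and every transcript in the table exceeds 0 in 100 mice or more and 1 in 50 or more. Counts were not analysed here, so the reads behind each value are unknown. Mapped reads per library and their unique percentage, from the study's supplementary list, entered only as covariates of an alternative fit.

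From the deposited assembly and FPKM, splicing events of 7 types and PSI, a fraction, were derived (Python 3.11.15; pandas 2.3.3, numpy 2.4.6, scipy 1.17.1). Tests took events whose PSI was defined in 200 or more mice (4627 of 4629 cassette exons). Mean squares between and within strains were moderated with squeezeVar of limma 3.58.1 in R 4.3.3, in 1 fit with no covariate, which lends strains with 1 mouse the spread of the others. Adjustment was by Benjamini-Hochberg over all events at 0.05. Genes were tested as log2(FPKM + 1) over all 14079 genes. When 200 of 25924 simulated events were given a strain share of 0.5, the 99-strain test recovered 100% of them. Of its calls there, 5.21% were false. In the deposited data, 11.5% of the cassette exon PSI values of a mouse were at 0 or 1 on average. The share of false calls in the deposited data was not tested.

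The like pair of CXB-6/ByJ libraries was found after the tests had been designed and averaged, which left 281 samples, 280 of them with a strain. The labels say that the replicates of a strain are biological. Named exons had a mean summed FPKM of at least 5 and an adjusted p under 0.05 in the classical inbred strains, ranked by the range of strain means over strains with at least 2 mice, the first 20 of 334. The exons and gene lists were chosen with earlier results of these data known. Exon places and sequences came from GENCODE M21 (GRCm38). Results of 2 genes of the lists are not reported here.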

Additional observations from a re-analysis of the deposited data

How the results depend on the processing

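No paired analysis was possible because the labels carry no replicate numbers that link mice of different strains. Leaving out 1 mouse of every strain in turn, which lowers the number of mice, gave 563 to 750 cassette exons differing among all 99 strains, 443 to 595 among the recombinant inbred and 98 to 148 among the classical inbred strains, 18 to 37 for DBA/2J, 17 to 32 for A/J, 17 to 27 for C3H/HeJ and 24 to 38 for BALB/cJ against C57BL/6J, 6 to 10 of the 20 named exons, and 28 to 39 regulator genes. With known transcripts only, which leaves 3108 cassette exons to test, the counts were 620 (all strains), 420 (recombinant inbred), 28 (A/J), 21 (C3H/HeJ) and 23 (BALB/cJ), and Lrrc7, Meg3, Ptpn4 and Tor1aip1 had no event. The Kruskal-Wallis test gave 678 and 455 in all and recombinant inbred strains, where the cause was not tested. Building events only from transcripts whose FPKM averaged 1 or more gave 2912. Over the 122 pairs of a count and an alternative, 93 stayed within 1.5 times the reported count. Of the 20 named exons, 14 kept their side of the threshold in the recombinant inbred strains under every alternative run. Lrrc61, Lrrc7, H2-T22, Gnb2 and Meg3 lost the call in at least 1 setting that left out mice, H2-T22 also on the log2 ratio with a pseudocount of 1, and 1110038B12Rik gained it in 1. Keeping both like libraries of CXB-6/ByJ, an alternative chosen after seeing the data, gave 1230 in all and 952 in the recombinant inbred strains. PSI of genes with few FPKM rests on ratios of small estimates. Among others, this limits Hyi in BALB/cJ and C3H/HeJ, and 4933431E20Rik in MA/MyJ, NZW/LacJ and RIIIS/J. It also limits H2-T22 in A/J, BUB/BnJ, KK/HlJ, NZB/BlNJ, SJL/J and SWR/J. In these strains its PSI was 1 and the including forms averaged 0.560 to 0.895 FPKM.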
